A study of Mus musculus with 36 samples.

Results

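The genes described here are 34 genes of glycolysis and of the response to low oxygen, taken by gene symbol from the 24781 genes of the deposited count table. They hold 3 carriers of glucose and lactate, 9 genes of upper glycolysis, 6 of lower glycolysis with lactate dehydrogenase, 3 that set the flux through the pathway, 3 of the hypoxia-inducible factor (HIF) and its hydroxylases, and 10 other hypoxia targets. Glycolysis splits glucose into pyruvate, which lactate dehydrogenase turns into lactate, and macrophages and activated T cells both draw on it for energy and building blocks. The HIF alpha subunit is hydroxylated and degraded while oxygen is plentiful; when oxygen is scarce it accumulates and binds DNA at short motifs near genes of glycolysis and of other adaptations. The HIF alpha subunit is thus controlled largely at the level of the protein, which was not measured here.

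The study asked how B cells and the metabolite GABA bear on immune cells in tumours. It sorted tumour-associated macrophages (TAMs; CD45+CD11b+F4/80 high) and CD8+ T cells (CD45+TCRβ+CD8+) from MC38 tumours, a mouse colon adenocarcinoma line placed in the skin, on day 7. Each library was made from 100 sorted cells by digital RNA sequencing, in which a barcode on each reverse-transcribed poly(A) RNA lets molecules be counted near the 3′ end. Each cell type has 3 groups of 6 libraries, 36 libraries in all. The study's methods describe each library as coming from a single mouse. Whether TAM and CD8+ libraries of a group shared mice is not known here, and the joint fit treats them as independent.

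WT mice were C57BL/6J or C57BL/6N and carry B cells. The *muMt*-/- mice, on C57BL/6J, carry a disrupted immunoglobulin heavy chain gene and lack mature B cells, but keep T cells and myeloid cells. Neither of these groups received GABA; the labels give their treatment as none, whereas the study's methods speak of placebo pellets. The third group, GABA-treated *muMt*-/-, received a slow-release GABA pellet under the skin the day before tumour inoculation. The study as a whole used both sexes at 2 to 5 months of age, comparing littermates or mice matched for age and sex. The labels do not state sex, age or WT substrain of each mouse, so their part was not tested.

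Depth differed between cell types and groups. WT TAM libraries held 206394 to 304100 molecules (median 242756), *muMt*-/- TAM libraries 100254 to 253608 (median 149960), and GABA-treated *muMt*-/- TAM libraries 151856 to 262606 (median 192775). CD8+ T cell libraries were shallower, at 22896 to 76898 molecules in WT (median 42065.5), 51064 to 77839 in *muMt*-/- (median 67121.5) and, after GABA, 65356 to 98015 (median 80283). Genes with a mean normalized number of molecules above 1 were tested: 9469 in TAMs, among them 33 of the 34 genes, and 6663 in CD8+ T cells, among them 31. *Adm*, which encodes the vasodilator peptide adrenomedullin, was below that mean in both, with 2, 4 and 1 molecules in all over the WT, *muMt*-/- and GABA-treated TAM libraries. *Pfkm* and *Pfkfb4* were below it in CD8+ T cells.

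The sorted identities were checked against markers. A list of 18 macrophage genes, the most abundant being *Ctss*, made up 1.69 to 2.14% of molecules in WT TAMs (median 1.99%), 1.44 to 1.85% in *muMt*-/- TAMs and 1.10 to 1.93% in GABA-treated TAMs. A list of 16 T cell genes, led by *Thy1*, made up 0.429 to 0.822% in WT CD8+ T cells, 0.241 to 0.706% in *muMt*-/- and 0.270 to 0.822% in GABA-treated *muMt*-/- CD8+ T cells, and at most 0.00633% in any TAM library. The macrophage list did reach CD8+ T cell libraries: its median was 0.0395% in WT, where 3 of its 18 genes were at 0, 0.156% in *muMt*-/- and 0.213% in GABA-treated mice, where none was at 0, and replicate 1 of *muMt*-/- reached 0.668% (Wilson 95% interval 0.607 to 0.734%). Its ranges overlapped between the 3 groups.

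Markers of other cells were low. The 8 B cell markers reached at most 0.00435% of molecules in any library, the 8 neutrophil markers 0.0299%, the 4 NK cell markers 0.0199%, the 7 tumour epithelium markers, led by *Cdh1*, 0.0173%, and the 4 erythroid markers 0.0524%. The 6 dendritic cell markers reached 0.0554% in CD8+ T cells, nearly all from *Ccr7*, which T cells also express, and 0.00765% in TAMs. The 9 stroma and endothelium markers, led by *Col3a1*, had a median of 0.0387% in WT TAMs and 0.534% in replicate 6 of that group (Wilson 95% interval 0.506 to 0.563%). In TAMs the tumour epithelium list held 0.00356 to 0.00511% of molecules in WT and 0.00583 to 0.0165% in *muMt*-/-, without overlap, and 0.00263 to 0.011% after GABA; 5, 6 and 5 of its 7 genes were at 0, and what it adds was not tested. The nuclear RNAs *Malat1* and *Neat1* separated the TAM groups: they made up 0.313 to 0.384% of molecules in WT, 0.458 to 1.04% in *muMt*-/- and 0.344 to 0.518% in GABA-treated TAMs, so that WT and *muMt*-/- libraries did not overlap. Each library is a bulk pool, so fewer cells of a type and less RNA per cell cannot be told apart.

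The summed share of the 34 genes overlapped between all groups of a cell type. In TAMs it was 0.908 to 1.25% in WT (median 0.945%), 0.630 to 1.05% in *muMt*-/- (median 0.997%) and, after GABA, 0.466 to 1.36% (median 1.07%). In CD8+ T cells it was 0.565 to 1.23% in WT (median 0.746%), 0.892 to 1.06% in *muMt*-/- (median 0.936%) and 0.695 to 1.10% with GABA (median 1.06%). Single libraries carried much of the spread: replicate 1 of GABA-treated TAMs had the lowest value of its group for 25 of 33 genes, and replicate 6 the highest for 16. In WT TAMs, replicate 5 was highest for 17 of 33, and in *muMt*-/- CD8+ T cells, replicate 1, the library with the most macrophage RNA, was highest for 14 of 31.

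Spread within a group was measured as the coefficient of variation of a gene's normalized number of molecules. Over the 23 to 25 genes of each group with a mean of at least 5 it had a median of 0.222, 0.284 and 0.341 in WT, *muMt*-/- and GABA-treated TAMs and of 0.447, 0.385 and 0.304 in the same groups of CD8+ T cells. *Ldha*, which encodes the lactate dehydrogenase A subunit, had the smallest coefficient in all 3 CD8+ groups, down to 0.0497 in *muMt*-/-. Its levels there were 123 to 138 molecules (median 135), beside 79.8 to 159 in WT (median 111) and 121 to 149.7 with GABA (median 135).

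The comparison of *muMt*-/- with WT TAMs asks how macrophages of a tumour differ when the host has no mature B cells. *Hif1a*, the gene of the oxygen-regulated HIF alpha subunit, rose in *muMt*-/- TAMs, 1.62-fold. *Hk2*, the hexokinase that commits glucose to the pathway in many activated cells, and *Ddit4*, an inhibitor of mTOR induced by stress and hypoxia, had higher values there too but did not pass the test. At the other end of the pathway, *Gapdh*, *Eno1* and *Pkm* of lower glycolysis had lower values without passing it. By edgeR, 1 of the 33 genes tested passed at an adjusted *P* below 0.05, where 2.05% of all genes tested did.

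*Hif1a* counted 19.6 to 38.4 normalized molecules in WT TAMs (median 27.7), 31.3 to 67.5 in *muMt*-/- TAMs (median 47.8) and 20.8 to 42.9 in GABA-treated *muMt*-/- TAMs (median 34.9). In 5 of 6 *muMt*-/- libraries it stood above every WT library, and the GABA-treated group overlapped both others. The log2 fold change of *muMt*-/- over WT was 0.69 ± 0.18 (SE; edgeR adjusted *P* = 0.0343). This call was narrow: *Hif1a* no longer passed without WT replicate 1 (log2 0.61, adjusted *P* = 0.101), 2 (0.70, 0.0556), 4 (0.66, 0.0738), 5 (0.69, 0.0552) or 6 (0.68, 0.0601), or without *muMt*-/- replicate 2 (0.66, 0.0824), 4 (0.67, 0.0866) or 6 (0.58, 0.104). With library depth (log2 molecules) added to the edgeR model, the log2 fold change was 0.50 (adjusted *P* = 0.511), and with the share of nuclear RNA, a covariate chosen after seeing the data, it was 0.62 (adjusted *P* = 0.66); over the 12 alternatives to the fit the adjusted *P* of *Hif1a* ran from 0.0105 to 0.66. Nuclear RNA share did not overlap between the groups compared, so it and genotype cannot be told apart.

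*Hk2* counted 6.37 to 15.8 molecules in WT TAMs (median 11.5), 17.0 to 25.4 in *muMt*-/- (median 20) and 8.44 to 19.2 with GABA (median 13.1). Every *muMt*-/- library lay above every WT library. The log2 fold change was 0.72 ± 0.21 (SE; edgeR adjusted *P* = 0.0517). *Ddit4* was counted in few molecules, 1.07 to 4.41 in WT (median 2.56), 2.81 to 12.2 in *muMt*-/- (median 5.82) and 0.767 to 6.54 with GABA (median 4.53). In 5 of 6 *muMt*-/- libraries *Ddit4* was above all WT libraries, with a log2 fold change of 1.27 ± 0.37 (SE; edgeR adjusted *P* = 0.0548). Both passed by DESeq2, at an adjusted *P* of 0.0244 for *Hk2* and 0.0426 for *Ddit4*; over the 12 alternatives the values ran from 0.0186 to 0.615 and from 0.0156 to 0.66. *Hk2* passed in 8 and *Ddit4* in 7 of those 12. Of the fits with a single library left out, *Hk2* passed without WT replicate 3 (adjusted *P* = 0.0443) or 5 (0.0402), and *Ddit4* without *muMt*-/- replicate 6 (0.0354).

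**Figure D1:**
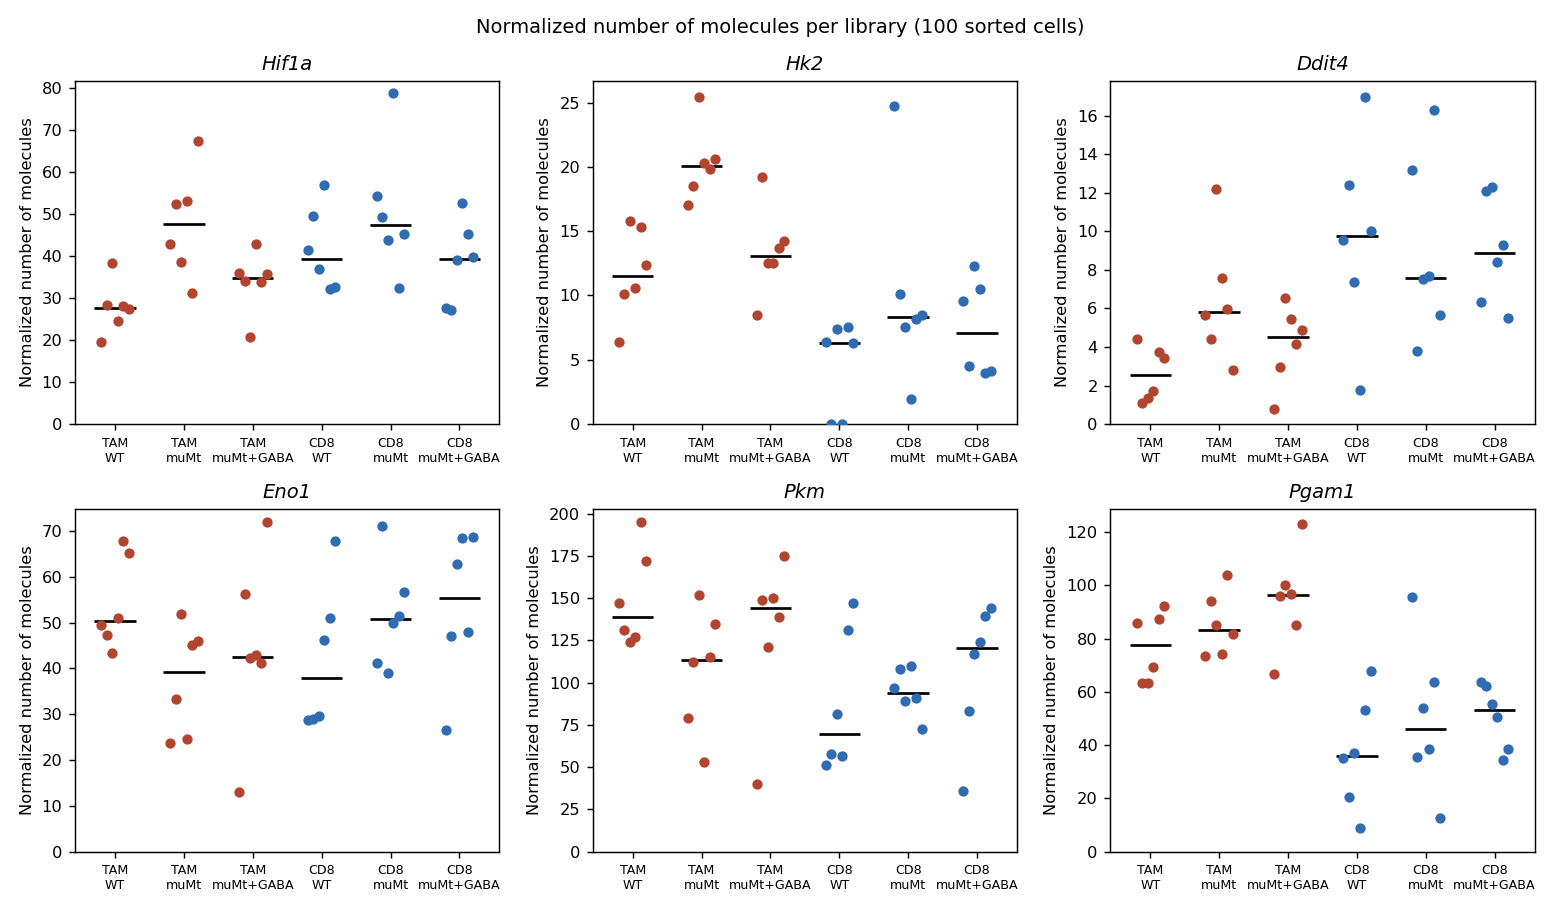
Normalized number of molecules (vertical axes, linear, from 0) of 6 genes in each of the 36 libraries of 100 sorted cells; each point is a library (TAMs red, CD8+ T cells blue), lines mark the median of 6, and muMt stands for *muMt*-/-. *Hk2* shows 6 *muMt*-/- TAM libraries at 17.0 to 25.4, above the WT TAM libraries at 6.37 to 15.8, while *Eno1* and *Pkm* overlap between all TAM groups.

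At an unadjusted edgeR *P* below 0.05, 10 of 33 genes passed in this comparison, 6 higher and 4 lower, where 14.9% of all genes tested did. DESeq2 called 3 at its adjusted *P*, namely *Hif1a*, *Hk2* and *Ddit4*, and 8 at its unadjusted *P*, where 2.67% and 11.7% of all genes did. In all, 20 of 33 genes had a higher and 13 a lower fitted value in *muMt*-/- TAMs, where 46.3% of all genes had a higher one; the median log2 fold change was 0.05, beside −0.05 for all genes.

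The carriers of glucose and lactate differed little. *Slc2a1* encodes the glucose carrier GLUT1, *Slc16a1* and *Slc16a3* the lactate carriers MCT1 and MCT4; none of the 3 passed in edgeR at either *P* (DESeq2, 0 at either), and their log2 fold changes ran from −0.14 to 0.19. *Slc2a1* counted 13.1 to 22.4 molecules in WT (median 18.6) and 16.9 to 32.8 in *muMt*-/- TAMs (median 20.2), where 5 libraries lay within the range of WT.

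Upper glycolysis, from hexokinase to triose phosphate isomerase, held genes that leaned different ways. Beside *Hk2*, the constitutive hexokinase gene *Hk1* counted 5.33 to 8.23 molecules in WT TAMs (median 7.24) and 6.56 to 14.4 in *muMt*-/- (median 9.50), above all WT libraries in 5 of 6. Its log2 fold change was 0.55 ± 0.24 (SE; edgeR adjusted *P* = 0.254). The other 7 genes, which encode glucose phosphate isomerase (*Gpi1*), the phosphofructokinase subunits (*Pfkl*, *Pfkp*, *Pfkm*), aldolases (*Aldoa*, *Aldoc*) and triose phosphate isomerase (*Tpi1*), had log2 fold changes from −0.86 for *Pfkm*, which rests on 12 molecules in WT and 4 in *muMt*-/-, to 0.09 for *Gpi1*. The median of the 9 genes was −0.01.

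The 6 genes of lower glycolysis had a median log2 fold change of −0.34. *Eno1*, encoding enolase, counted 43.3 to 67.7 molecules in WT (median 50.2), 23.8 to 51.9 in *muMt*-/- (median 39.2) and 13.0 to 71.9 with GABA (median 42.6). *Pkm*, encoding the muscle-type pyruvate kinase found in most proliferating cells, counted 124 to 195 in WT (median 139), 53.2 to 152 in *muMt*-/- (median 114) and 39.9 to 175 with GABA (median 144). *Gapdh*, encoding glyceraldehyde phosphate dehydrogenase, counted 197 to 288 (median 206), 91.2 to 218 (median 167) and 52.2 to 275 (median 217) in the same order. All 3 groups overlapped for each of these genes, with 3, 4 and 4 of 6 *muMt*-/- libraries below all WT libraries.

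The log2 fold changes of *muMt*-/- over WT were −0.56 ± 0.23 for *Eno1* (SE; edgeR adjusted *P* = 0.229), −0.51 ± 0.22 for *Pkm* (0.264) and −0.50 ± 0.23 for *Gapdh* (0.28). These 3 did pass in edgeR when no filter on low values was set (*Eno1* adjusted *P* = 0.0386; over its 12 alternatives 0.0386 to 0.996), whereas with library depth (log2 molecules) in the model the value for *Eno1* turned to 0.03. The *muMt*-/- TAM libraries were the shallowest of the TAM groups, and the part of depth was not tested beyond that covariate. *Ldha* (0.01), *Pgam1* (0.10), which encodes phosphoglycerate mutase, and *Pgk1* (−0.17), which encodes phosphoglycerate kinase, stayed nearer 0. Many processed pseudogenes of *Gapdh*, *Pgk1*, *Aldoa*, *Tpi1*, *Pgam1*, *Eno1*, *Ldha* and *Pkm* exist in the mouse genome, and how the deposited counts treat molecules that match them is uncertain.

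The genes that set flux are *Pdk1*, whose kinase keeps pyruvate out of the mitochondrial citrate cycle, and *Pfkfb3* and *Pfkfb4*, whose enzymes set the level of an activator of phosphofructokinase. Their log2 fold changes were 0.21, 0.26 and −0.26, with 0 of 3 passing in edgeR or DESeq2 at either *P*. The prolyl hydroxylase genes *Egln1* and *Egln3*, whose enzymes mark HIF for degradation, had log2 fold changes of 0.41 ± 0.22 and 0.32 ± 0.40 (SE). *Egln1* counted 6.40 to 10.5 molecules in WT (median 8.77) and 6.56 to 18.4 in *muMt*-/- TAMs (median 10.1), with overlap.

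Of the 10 other hypoxia targets 9 were tested, with a median log2 fold change of 0.09. *P4ha1*, the catalytic subunit of collagen prolyl hydroxylase, counted 6.77 to 15 molecules in WT (median 12.6), 13.8 to 23.6 in *muMt*-/- (median 18.2) and 8.69 to 19.6 with GABA (median 15.7). It was above all WT libraries in 5 of 6 *muMt*-/- libraries, with a log2 fold change of 0.53 ± 0.22 (SE; edgeR adjusted *P* = 0.22). *Ero1l*, an oxidase that forms disulfide bonds in the endoplasmic reticulum, counted 6.37 to 20.2 in WT (median 15.4) and 13.6 to 30 in *muMt*-/- (median 21.8), with a log2 fold change of 0.56 ± 0.25 (SE; 0.286). *Higd1a*, a mitochondrial inner membrane protein, leaned the other way, at 12.3 to 28.3 in WT (median 20.8) and 10.2 to 23.9 in *muMt*-/- (median 13.7), and −0.47 ± 0.22 (SE; 0.316). Both genes overlapped between groups. *Bnip3*, *Ndrg1*, *Ankrd37*, *Mxi1* and *Kdm3a* had log2 fold changes between −0.23 and 0.21.

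**Figure D2:**
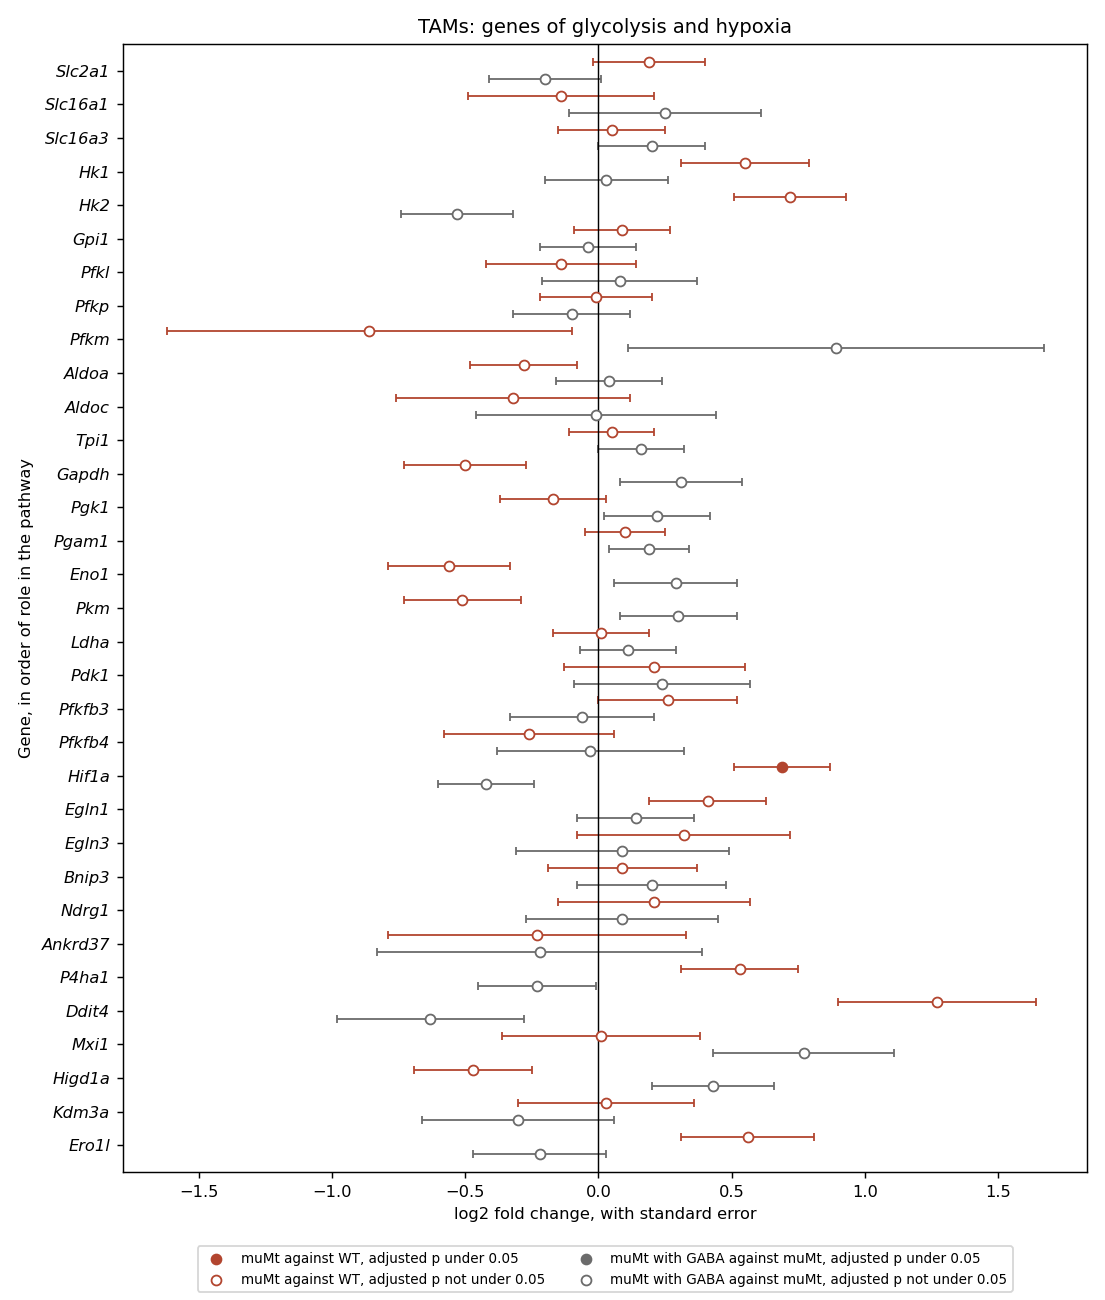
Log2 fold changes (horizontal axis, with standard errors) in TAMs for the 33 genes tested, in order of role, of *muMt*-/- against WT (red) and of GABA-treated *muMt*-/- against *muMt*-/- (grey); filled points have an edgeR adjusted *P* below 0.05. *Hif1a* at 0.69 is the single filled point; both comparisons share the *muMt*-/- libraries.

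GABA treatment of *muMt*-/- mice asks whether the metabolite alone moves TAMs. *Hk2* and *Hif1a*, the genes of the first enzyme and of the HIF alpha subunit, had lower values with GABA, and *Mxi1*, which encodes an antagonist of MYC, higher ones, but none passed. By edgeR, 0 of 33 genes passed at an adjusted *P* below 0.05 (0.0211% of all genes tested did) and 3 at an unadjusted *P* below 0.05 (8.46% of all genes). DESeq2 called 0 at its adjusted (0.634% of all genes) and 2 at its unadjusted *P* (6.13%), *Hk2* and *Hif1a*. The comparison uses the same *muMt*-/- libraries as that with WT, so opposite signs in both are not independent of each other.

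*Hk2* with GABA lay below all *muMt*-/- libraries in 5 of 6, with a log2 fold change of −0.53 ± 0.21 (SE; edgeR adjusted *P* = 0.435). *Hif1a* had −0.42 ± 0.18 (SE; 0.53), with 1 of 6 libraries below all *muMt*-/- libraries. *Mxi1* counted 1.35 to 7.48 molecules in WT (median 3.35), 2.30 to 6.75 in *muMt*-/- (median 4.98) and 2.38 to 9.79 with GABA (median 7.96). Above all *muMt*-/- libraries stood 4 of 6, at a log2 fold change of 0.77 ± 0.34 (SE; 0.533). *Ddit4* had −0.63 ± 0.35 (SE; 0.645). *Higd1a*, at 10.7 to 26.9 molecules with GABA (median 20.7), had 0.43 ± 0.23 (SE; 0.624).

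By role, all 6 genes of lower glycolysis had higher fitted values with GABA, from 0.11 to 0.31 with a median of 0.25, none passing at either *P* in edgeR or DESeq2. The medians were 0.20 for the 3 carriers, 0.03 for upper glycolysis, −0.03 for the flux genes, 0.09 for HIF and its hydroxylases and −0.22 for the other hypoxia targets. Over the 33 genes the median was 0.09, with 20 higher and 13 lower, beside 0.06 for all genes, of which 55.8% were higher.

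GABA-treated *muMt*-/- TAMs were also compared with WT TAMs. *Egln1* counted 10.7 to 15.8 molecules with GABA (median 11.9), in all 6 libraries above the WT libraries, whose highest value was 10.5. *Hk1* counted 4.60 to 13.7 (median 11.2), with 5 libraries above and 1, replicate 1, below all WT libraries. Neither passed: the log2 fold changes were 0.55 ± 0.21 for *Egln1* (SE; edgeR adjusted *P* = 0.546) and 0.59 ± 0.23 for *Hk1* (SE; 0.554).

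*Mxi1*, with 4 of 6 GABA-treated libraries above all WT libraries, had 0.78 ± 0.31 (SE; edgeR adjusted *P* = 0.57), *Ddit4* 0.64 ± 0.38 (SE; 0.771). *Pgam1* counted 63.2 to 92.1 molecules in WT (median 77.5), 73.5 to 104 in *muMt*-/- (median 83.3) and 66.7 to 123 with GABA (median 96.2), and had 0.29 ± 0.15 (SE; 0.732). The GABA-treated libraries overlapped WT for these 3 genes. Of the 33 genes, 0 passed in edgeR at an adjusted *P* below 0.05 (0.0739% of all genes did) and 3 at an unadjusted *P* below 0.05 (7.02% of all genes). By DESeq2 the counts were 0 and 4 (0.148% and 4.65% of all genes). The median log2 fold change was 0.11, with 21 higher and 12 lower, beside 0.02 for all genes, of which 52.0% were higher. *Hif1a* and *Hk2* had 0.28 ± 0.18 and 0.19 ± 0.21 (SE).

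In CD8+ T cells, the comparison of *muMt*-/- with WT asks the same of the lymphocytes. Most of these genes had higher fitted values in *muMt*-/-, *Pgk1* and *Hk2* with the lowest unadjusted *P*, and none passed the test. By edgeR, 0 of 31 genes passed at an adjusted *P* below 0.05, as did 0.0% of all genes tested, and 2 at an unadjusted *P* below 0.05, where 6.17% of all genes did. DESeq2 called 0 at either *P* (0.0% and 3.33% of all genes). Higher values were fitted for 27 and lower for 4 genes, with a median log2 fold change of 0.36, beside 0.15 for all genes, of which 62.3% were higher. With DESeq2 size factors in edgeR the shift of all genes was 0.06.

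*Pgk1* counted 24.8 to 77.7 molecules in WT CD8+ T cells (median 47.4), 61.5 to 77.2 in *muMt*-/- (median 68.0) and 52.0 to 89.4 with GABA (median 65.4). Every *muMt*-/- library lay within the WT range, which is wide. Its log2 fold change was 0.57 ± 0.24 (SE; edgeR adjusted *P* = 0.699). *Hk2* was at 0 in 2 of 6 WT libraries and counted up to 7.58 there (median 6.33), 1.92 to 24.7 in *muMt*-/- (median 8.32) and 3.99 to 12.3 with GABA (median 7.05). In 4 of 6 *muMt*-/- libraries it was above all WT libraries; the highest, replicate 1, is the library with the most macrophage RNA. The log2 fold change was 1.16 ± 0.53 (SE; 0.735).

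Of the other named genes, *Gpi1* counted 16.0 to 34.1 molecules in WT (median 24.7), 23.8 to 44.4 in *muMt*-/- (median 32.8) and 21.2 to 35.7 with GABA (median 27.4), with a log2 fold change of *muMt*-/- over WT of 0.51 ± 0.26 (SE; edgeR adjusted *P* = 0.833). *Egln1* counted 4.13 to 12.5 (median 6.89), 5.42 to 19.7 (median 12.6) and 6.07 to 13.3 (median 10.8), with 0.69 ± 0.38 (SE; 0.85). *Ndrg1*, a gene induced by stress and differentiation, counted 1.78 to 15.2 (median 3.91), 2.53 to 19.7 (median 11.7) and 1.52 to 10.6 (median 6.15), with 0.91 ± 0.50 (SE; 0.85). All groups overlapped for these 3 genes. The 6 genes of lower glycolysis all had higher fitted values, from 0.17 to 0.57 (median 0.31), while the other hypoxia targets had a median of 0.01.

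With GABA against *muMt*-/- CD8+ T cells, none of these genes passed. Of 31 genes, 0 passed in edgeR at an adjusted *P* below 0.05 (0.0% of all genes) and 0 at an unadjusted *P* below 0.05 (3.71% of all genes); DESeq2 called 0 at either (0.0% and 2.0% of all genes). The median was 0.07 with 18 higher and 13 lower, beside 0.03 for all genes, of which 53.5% were higher. *Ndrg1* had a log2 fold change of −0.81 ± 0.45 and *Slc16a3* one of −0.52 ± 0.43 (SE; edgeR adjusted *P* = 0.999 for each). *Slc16a3* counted 0 to 36.4 molecules in WT (median 7.82), 5.67 to 34.5 in *muMt*-/- (median 17.0) and 8.25 to 16.4 with GABA (median 11.1).

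*Egln3* was counted in few molecules, at most 5.68 in a WT (median 0), 3.85 in a *muMt*-/- (median 1.26) and 6.36 in a GABA-treated library (median 2.57), with a log2 fold change of GABA over *muMt*-/- of 1.04 ± 0.76 (SE). *Aldoa* counted 41.3 to 116 (median 60.9), 36.5 to 65.9 (median 56.2) and 29.7 to 89.3 (median 70.3), with 0.35 ± 0.26 (SE). *Hif1a* counted 32.2 to 56.9 in WT CD8+ T cells (median 39.2), 32.5 to 78.8 in *muMt*-/- (median 47.4) and 27.3 to 52.7 with GABA (median 39.4), with −0.32 ± 0.23 (SE). The GABA-treated libraries overlapped the *muMt*-/- libraries for each of them, and the edgeR adjusted *P* was 0.999 for all 3.

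With GABA against WT, *Pgk1* again had the lowest *P*, at a log2 fold change of 0.60 ± 0.24 (SE; edgeR adjusted *P* = 0.61). *Tpi1* counted 17.8 to 53.0 molecules in WT (median 27.1), 25.0 to 59.2 in *muMt*-/- (median 40.3) and 31.9 to 56.5 with GABA (median 46.5), with 0.56 ± 0.28 (SE; 0.721). *Gapdh* counted 86.7 to 216 (median 138), 132 to 175 (median 155) and 95.5 to 219 (median 195), with 0.43 ± 0.22 (SE; 0.737). These ranges overlap. *Ldha* had 0.36 ± 0.18 (SE; 0.725), and *Mxi1*, with 4 molecules in all over the WT libraries, 1.43 ± 0.71 (SE; 0.725; 2.11 without WT replicate 2), at 0 to 8.26 molecules in WT (median 0.628), 1.25 to 5.07 in *muMt*-/- (median 3.95) and 1.33 to 7.42 with GABA (median 3.48).

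Of 31 genes in that comparison, 0 passed in edgeR at an adjusted *P* below 0.05 (0.0% of all genes) and 2, *Pgk1* and *Tpi1*, at an unadjusted *P* below 0.05 (6.89% of all genes). DESeq2 called 0 at either (0.015% and 3.33% of all genes). The median log2 fold change was 0.36, with 28 higher and 3 lower, beside 0.21 for all genes, of which 65.5% were higher. That shift of all genes depends on scaling: with DESeq2 size factors in edgeR it was 0.06. With library depth (log2 molecules) in the model, the values of *Tpi1* and *Gapdh* turned to −0.10 and −0.09. WT libraries were the shallowest of the CD8+ groups and the poorest in macrophage RNA; the part of either was not tested beyond the covariates.

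Whether TAMs and CD8+ T cells responded differently was tested directly, over 8477 genes in a joint fit of the 36 libraries. For *muMt*-/- against WT, 0 of 32 genes passed in edgeR at an adjusted *P* below 0.05 (0.0118% of all genes did) and 4 at an unadjusted *P* below 0.05 (10.1% of all genes); DESeq2 called 0 and 1 (0.106% and 7.08% of all genes). *Eno1*, *Pgk1* and *Gapdh* had lower values in the TAM response, by differences of log2 fold changes of −0.89 ± 0.38 (SE; edgeR adjusted *P* = 0.41), −0.76 ± 0.33 (0.43) and −0.73 ± 0.35 (0.467), and *Ddit4* a higher one, 1.23 ± 0.57 (0.447). For *Hif1a* the difference was 0.27 ± 0.31 (0.827) and for *Hk2* −0.48 ± 0.56 (0.827), so the call of *Hif1a* in TAMs is not shown to differ from CD8+ T cells. The median over the 32 genes was −0.38, beside −0.30 for all genes, which was −0.11 with DESeq2 size factors.

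For the response to GABA in *muMt*-/- mice, 0 of 32 genes differed between the cell types in edgeR at an adjusted *P* below 0.05 (0.0% of all genes) and 1 at an unadjusted *P* below 0.05 (4.53% of all genes). That gene was *Pfkfb4*, which had no molecule in any *muMt*-/- CD8+ library, so no fold is given. DESeq2 called 0 at either (0.0% and 4.26% of all genes). The median was 0.03, beside 0.01 for all genes.

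The cell types themselves were compared within each group. In WT, TAMs held higher levels than CD8+ T cells of the carriers *Slc2a1* and *Slc16a3*, of *Hk2*, *Gpi1* and *Tpi1* and of *Gapdh*, *Pgk1*, *Pgam1* and *Pkm*, while no gene tested of phosphofructokinase, aldolase, enolase or lactate dehydrogenase passed in edgeR. *Aldoa* did with no filter and without CD8+ replicate 6 (adjusted *P* = 0.00603). The mitophagy receptor gene *Bnip3* was higher too, and *Ddit4* was lower. *Pfkfb4* passed as higher in each group. Being below the filter in CD8+ T cells, it entered the fit through TAMs, so its calls are not read as support. *Pfkfb3* did not pass in WT, but did as higher in 4 of 9 alternatives (adjusted *P* over the 9, 0.0179 to 0.231). In *muMt*-/- mice *Hk2*, *Pgam1*, *Bnip3* and *P4ha1* were higher, and with GABA *Slc16a3*, *Pgam1* and *Bnip3* were higher and *Slc16a1* and *Ddit4* lower. Levels are relative to the RNA of the library: per 100 cells, TAM libraries held 5.59-fold more molecules than CD8+ libraries in WT, 2.45-fold in *muMt*-/- and 2.47-fold with GABA.

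By edgeR, 11 of 32 genes were higher in WT TAMs than in WT CD8+ T cells at an adjusted *P* below 0.05, where 16.8% of all genes tested were, and 1 lower, where 5.99% were. In *muMt*-/-, 5 were higher (13.6% of all genes) and 0 lower (7.71%; at an unadjusted *P* below 0.05 1, and by DESeq2 0 at its adjusted and 1 at its unadjusted *P*). With GABA, 4 were higher (14.1%) and 2 lower (7.93%). The median log2 fold changes of TAM over CD8+ were 0.70, 0.22 and 0.30 in WT, *muMt*-/- and GABA-treated mice, beside 0.36, 0.10 and 0.12 for all genes; those in WT and *muMt*-/- stayed the same with *Pfkfb4* at its bound.

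Scaling moved these counts. With total molecules in place of TMM scaling, the medians of all genes became 0.04, −0.13 and −0.02, and the calls in edgeR 3 higher and 2 lower in WT (*Bnip3*, *Pfkfb4* and *Pgam1*; *Ddit4* and *Hif1a*), 1 and 2 in *muMt*-/- (*Pfkfb4*; *Eno1* and *Slc16a1*) and 4 and 3 with GABA. With DESeq2 size factors the all-gene median in WT was 0.20, and the calls were 7 and 1, 7 and 0, and 5 and 1. The shares of all genes called with these scalings are not given, so these counts are not read as particular to these genes.

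*Pgam1* differed in all 3 groups. In CD8+ T cells it counted 8.89 to 67.8 molecules in WT (median 36), 12.8 to 95.4 in *muMt*-/- (median 46.2) and 34.6 to 63.6 with GABA (median 53.1). In WT, 4 of 6 TAM libraries lay above all CD8+ libraries, in *muMt*-/- 1 of 6, and with GABA all 6. The log2 fold changes were 1.13 ± 0.28 (SE; edgeR adjusted *P* = 0.0016), 0.76 ± 0.26 (0.0302) and 0.85 ± 0.26 (0.0109).

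The *Pgam1* call in *muMt*-/- ended without CD8+ replicate 2 (adjusted *P* = 0.0844), 4 (0.0728) or 6 (0.123) or TAM replicate 2 (0.0548), 3 (0.0752) or 5 (0.0732), and with total molecules (log2 0.53, adjusted *P* = 0.131). It passed in 5 of its 9 alternatives, over which the adjusted *P* ran from 0.000353 to 0.131. Without the 7 CD8+ libraries whose macrophage markers exceeded 0.194% of molecules, a choice made after seeing the data, the value for *Pgam1* in *muMt*-/- was 1.25. These 7 were replicate 5 of WT, 1 and 5 of *muMt*-/-, and 1, 2, 3 and 6 with GABA. Only CD8+ replicates 4 and 5 then remained with GABA.

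*Bnip3* counted 8.81 to 34 molecules in WT TAMs (median 11.8), 13.3 to 28.1 in *muMt*-/- (median 16.5) and 9.21 to 29.4 with GABA (median 19.3). In CD8+ T cells it counted 0 to 13.8 (median 3.73), 2.84 to 11.5 (median 7.65) and 1.52 to 9.31 (median 6.34). All 6 *muMt*-/- TAM libraries, 5 GABA-treated and 2 WT TAM libraries were above every CD8+ library of their group. The log2 fold changes were 1.57 ± 0.45 in WT (SE; edgeR adjusted *P* = 0.00669), 1.19 ± 0.39 in *muMt*-/- (0.0203) and 1.60 ± 0.38 with GABA (0.000822).

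*Bnip3* in WT had a value of 1.28 without CD8+ replicate 4, which ended the call (adjusted *P* = 0.0513), and 2.56 without CD8+ replicate 6. In *muMt*-/- the call of *Bnip3* ended without CD8+ replicate 6 (0.0676) or TAM replicate 5 (0.0866) and with total molecules (0.0672; over its 9 alternatives 0.00161 to 0.0672). With GABA it ended without the CD8+ libraries rich in macrophage RNA, where only CD8+ replicates 4 and 5 remained (log2 1.15, adjusted *P* = 0.134; over its 9 alternatives 3.38e-06 to 0.134).

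*Pfkfb4* was not detected in any of the 12 WT and *muMt*-/- CD8+ libraries. It counted 2.62 to 4.80 molecules in WT TAMs (median 4.59), 1.84 to 5.66 in *muMt*-/- TAMs (median 3.73) and 2.30 to 5.36 with GABA (median 2.91). Bounds were set against a floor of 3 molecules over the group of CD8+ libraries, scaled by DESeq2 size factors. By these, 54 molecules in WT TAMs were at least 3.62-fold higher, and 29 in *muMt*-/- TAMs at least 4.75-fold higher. On total molecules these bounds were 3.22 and 3.95. The mean of *Pfkfb4* in CD8+ libraries was 0.171, below the filter, so it entered the joint fit through its level in TAMs. Its edgeR calls, counted in the totals given here, are therefore not read as support. With GABA, 36 molecules in TAMs stood beside 4 in CD8+ T cells, a log2 fold change of 1.88 ± 0.60 (SE; edgeR adjusted *P* = 0.0173). That last call ended without CD8+ replicate 4 (log2 1.61, adjusted *P* = 0.0609) and with a block for replicate number (log2 1.83, 0.0538). The value was 2.57 without CD8+ replicate 2. All 4 molecules lay in CD8+ libraries rich in macrophage RNA.

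*Hk2* was 1.46 ± 0.43 higher on the log2 scale in WT TAMs (SE; edgeR adjusted *P* = 0.00901), with 5 of 6 libraries above all CD8+ libraries, and 0.98 ± 0.32 in *muMt*-/- (SE; 0.019), with 1 of 6 above. With GABA it did not pass, at 0.74 ± 0.32 (SE; 0.0954). The WT call of *Hk2* ended without CD8+ replicate 4 (0.0755) and with total molecules (0.056; over its 9 alternatives 0.00188 to 0.056). In *muMt*-/- it ended without CD8+ replicate 4 (0.0661) or TAM replicate 3 (0.0793) and with total molecules (0.0803; over its 9 alternatives 0.00194 to 0.0803).

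*Slc2a1* counted 0 to 13.8 molecules in WT CD8+ T cells (median 8.92), 4.26 to 24.7 in *muMt*-/- (median 10.7) and 4.22 to 20.2 with GABA (median 8.41), and in GABA-treated TAMs 8.44 to 25.4 (median 17.2). In WT, 4 of 6 TAM libraries were above all CD8+ libraries, at a log2 fold change of 1.13 ± 0.38 (SE; edgeR adjusted *P* = 0.0228). The call of *Slc2a1* ended without CD8+ replicate 3 (0.0664) or 4 (0.127) and in 5 of 9 alternatives, over which the adjusted *P* ran from 0.00308 to 0.135. In *muMt*-/- and with GABA it did not pass, at 0.80 ± 0.33 (SE; 0.0712) and 0.69 ± 0.32 (SE; 0.12), but did without CD8+ replicate 1 of either group (0.0142 and 0.0233). It also passed in both without the CD8+ libraries rich in macrophage RNA (log2 1.27 and 1.86). The value of 1.86 with GABA rests on CD8+ replicates 4 and 5 alone. In *muMt*-/- *Slc2a1* passed also with no filter and with a block for replicate number (0.0403). Over the 9 alternatives the adjusted *P* ran from 0.00519 to 0.211 and from 0.00576 to 0.212.

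The lactate carriers leaned opposite ways. *Slc16a3*, whose carrier MCT4 exports lactate from glycolytic cells, counted 18.3 to 34.3 molecules in WT TAMs (median 25.0), 13.6 to 37.7 in *muMt*-/- TAMs (median 31.0) and 21.5 to 43.9 with GABA (median 29.8). With GABA all 6 TAM libraries were above the CD8+ libraries, at a log2 fold change of 1.40 ± 0.33 (SE; edgeR adjusted *P* = 0.00102), beside 1.07 ± 0.37 in WT (SE; 0.0269) and 0.69 ± 0.33 in *muMt*-/- (SE; 0.137; 0.035 without CD8+ replicate 1). *Slc16a3* passed in *muMt*-/- also with no filter (0.0394) and without the CD8+ libraries rich in macrophage RNA (log2 1.07, adjusted *P* = 0.0362). In WT, 0 of 6 TAM libraries were above all CD8+ libraries, and *Slc16a3* no longer passed without CD8+ replicate 1 (adjusted *P* = 0.106), 2 (0.0607), 3 (0.0644) or 4 (0.18) or TAM replicate 5 (0.0511) or 6 (0.0533). The WT call ended also in 6 of 9 alternatives: DESeq2, DESeq2 size factors, filterByExpr, a mean above 5, the robust fit and total molecules (adjusted *P* over the 9, 0.000819 to 0.145).

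*Slc16a1*, whose carrier MCT1 moves lactate in either direction, counted 1.70 to 6.37 in WT TAMs (median 3.77), 1.13 to 5.63 in *muMt*-/- TAMs (median 3.92) and 1.63 to 6.91 with GABA (median 4.23). CD8+ T cells held 3.19 to 7.58 (median 4.73), 3.85 to 9.48 (median 6.46) and 2.12 to 11.6 (median 8.41). The groups overlapped. With GABA it was lower in TAMs at a log2 fold change of −0.91 ± 0.34 (SE; edgeR adjusted *P* = 0.0426), a call of *Slc16a1* that ended without CD8+ replicate 2 (0.0554), 3 (0.0947), 4 (0.171), 5 (0.0504) or 6 (0.0916) or TAM replicate 3 (0.0697), 4 (0.112) or 5 (0.0826). It ended also with DESeq2 size factors (0.0505), in DESeq2 (0.0704), with no filter (0.0966) and with a block for replicate number (0.06). Without the CD8+ libraries rich in macrophage RNA the call ended too (0.0766). The log2 fold change was then −1.17, larger in size than −0.91, with only CD8+ replicates 4 and 5 remaining. Its 8 alternatives ran from 0.0117 to 0.0966.

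*Ddit4* was lower in WT TAMs. In CD8+ T cells it counted 1.78 to 17.0 molecules in WT (median 9.81), 3.80 to 16.3 in *muMt*-/- (median 7.61) and 5.50 to 12.3 with GABA (median 8.87). In WT, 3 of 6 TAM libraries lay below all CD8+ libraries, at a log2 fold change of −1.65 ± 0.45 (SE; edgeR adjusted *P* = 0.004), and with GABA 5 of 6, at −1.12 ± 0.37 (SE; 0.0214). In *muMt*-/- it did not pass, at −0.43 ± 0.37 (SE; 0.474). *Hif1a*, at −0.38 ± 0.23 in WT (SE; 0.252), had 5 of 6 TAM libraries below all CD8+ libraries and passed as lower in 3 of 9 alternatives: filterByExpr, a mean above 5 and total molecules (adjusted *P* over the 9, 0.0126 to 0.604).

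The *Ddit4* call with GABA ended without CD8+ replicate 2 (0.0504) or 3 (0.074) or TAM replicate 2 (0.052). It ended also without the CD8+ libraries rich in macrophage RNA, where only CD8+ replicates 4 and 5 remained (log2 −1.09, adjusted *P* = 0.146; over its 9 alternatives 0.0072 to 0.146). *P4ha1*, higher in *muMt*-/- TAMs, counted 3.70 to 17.0 molecules in WT CD8+ T cells (median 9.24), 0 to 17.7 in *muMt*-/- (median 7.77) and 1.05 to 14.8 with GABA (median 9.77). In *muMt*-/-, 3 of 6 TAM libraries were above all CD8+ libraries, at a log2 fold change of 1.10 ± 0.39 (SE; edgeR adjusted *P* = 0.0334). That *P4ha1* call ended without CD8+ replicate 4 (0.0959), 5 (0.116) or 6 (0.0764) or TAM replicate 1 (0.0551), 4 (0.089) or 5 (0.0549). It ended also with total molecules (0.0978), the robust fit (0.0534), a mean above 5 (0.0629) or without the CD8+ libraries rich in macrophage RNA (0.101). Its 9 alternatives ran from 0.00367 to 0.101. With GABA *P4ha1* did not pass, but did without those libraries (log2 2.99, adjusted *P* = 0.000864), on CD8+ replicates 4 and 5 alone.

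The other genes higher in WT TAMs were *Gpi1*, at a log2 fold change of 0.80 ± 0.23 (SE; edgeR adjusted *P* = 0.00739) with 5 of 6 libraries above all CD8+ libraries, *Tpi1* at 0.85 (0.00542), *Gapdh* at 0.79 (0.0155), *Pgk1* at 0.73 (0.0206) and *Pkm* at 0.87 (0.0154). In edgeR none of them passed in *muMt*-/- or GABA-treated mice. *Tpi1* passed in *muMt*-/- in 4 of 9 alternatives: DESeq2, DESeq2 size factors, the robust fit and without the CD8+ libraries rich in macrophage RNA (adjusted *P* over the 9, 0.0109 to 0.283), and without CD8+ replicate 1 (0.0225). With GABA, *Gpi1* passed in DESeq2 and with DESeq2 size factors (0.0328 to 0.496) and *Tpi1* in DESeq2 (0.0444 to 0.27), and both without TAM replicate 1 (0.0302 and 0.0489).

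These WT calls depend on filter and scaling. *Gapdh*, *Pgk1* and *Pkm* each lost theirs in 5 of 9 alternatives: all 3 in DESeq2, with filterByExpr, with a mean above 5 and with total molecules, *Gapdh* and *Pgk1* also with DESeq2 size factors and *Pkm* with the robust fit. Over the 9 the adjusted *P* ran from 0.000222 to 0.208, 0.00318 to 0.276 and 8.41e-05 to 0.175. *Tpi1* ended with total molecules (0.104; range 0.000782 to 0.104), and *Gpi1* with a mean above 5 and with total molecules (range 0.00329 to 0.167). Without CD8+ replicate 1, 2 or 4 the calls of *Pgk1* (0.0978, 0.071, 0.12) and *Pkm* (0.0739, 0.0503, 0.101) ended, that of *Gapdh* without replicate 1 (0.0698) or 2 (0.0576) and that of *Tpi1* without replicate 4 (0.0644).

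The count of 12 calls in WT was 5 without CD8+ replicate 4, and lay between 5 and 13 over all single libraries left out. In *muMt*-/- the count of 5 was 9 without CD8+ replicate 1, 2 without CD8+ replicate 4 or 6 or TAM replicate 5, and 3 without TAM replicate 3. With GABA, the count of 6 was 9 without TAM replicate 1, and 4 without CD8+ replicate 2, 3 or 4.

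Genes with few molecules in CD8+ T cells leave the difference between cell types uncertain. *Pfkm*, with 12 molecules in WT TAMs and 2 in WT CD8+ T cells, had a ratio of 1.21 after scaling by DESeq2 size factors, with a 95% counting interval of 0.268 to 11.1 (1.07 on total molecules). *Aldoc*, with 42 and 3, had a ratio of 2.81 with an interval of 0.899 to 14.2 (2.51 on total molecules). A difference was not detectable at this depth for either.

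**Figure D3:**
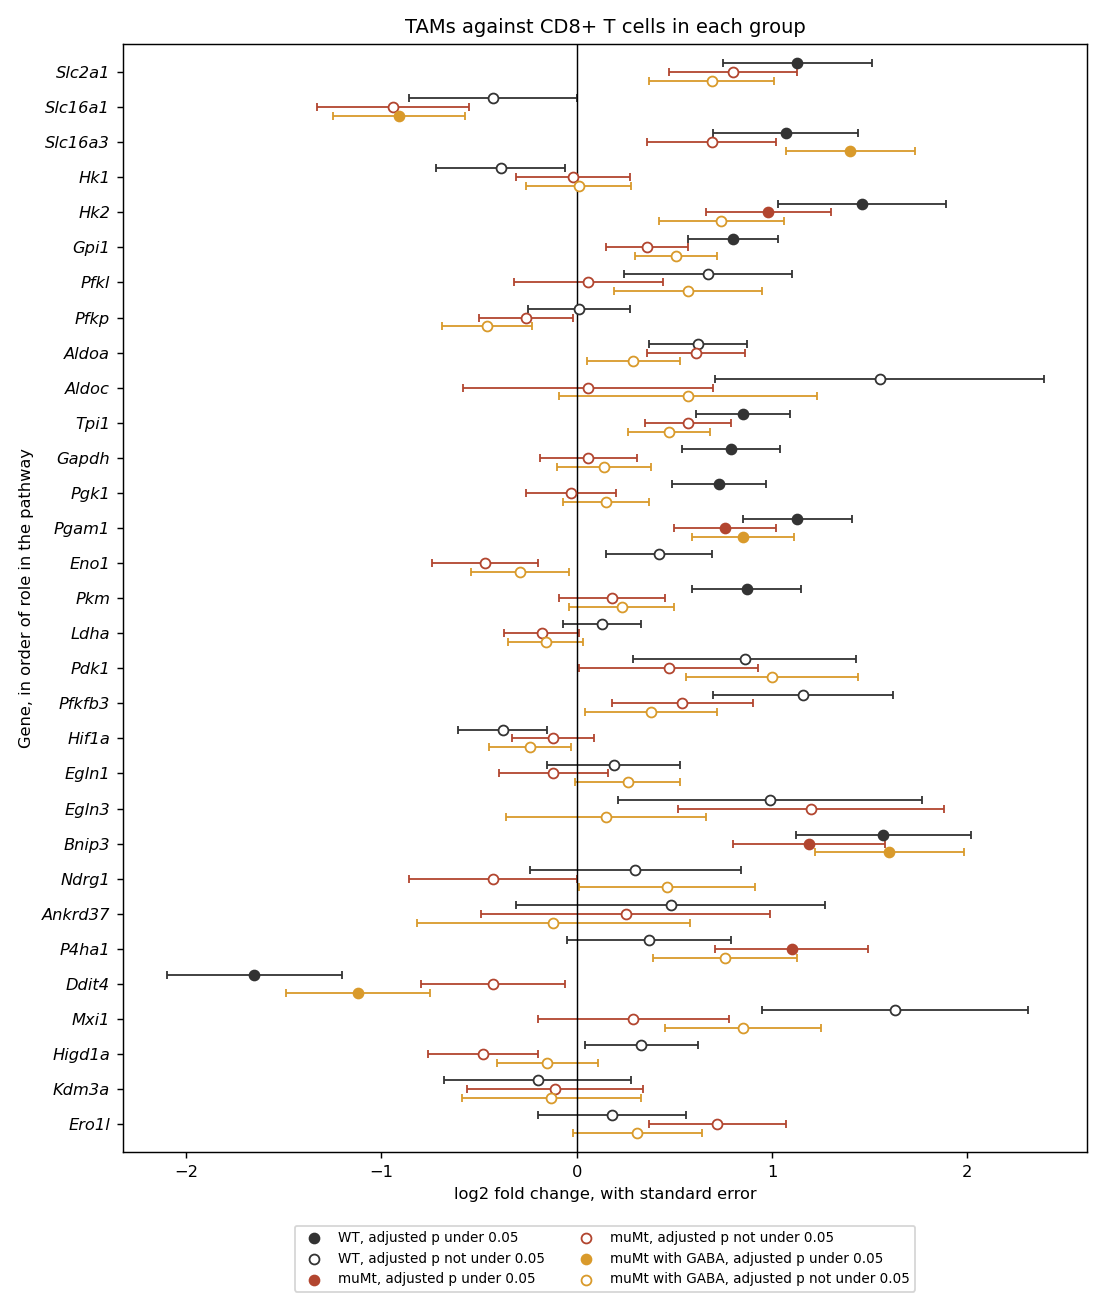
Log2 fold changes of TAMs over CD8+ T cells (horizontal axis, with standard errors) in WT (black), *muMt*-/- (red) and GABA-treated *muMt*-/- (yellow) mice, for the genes tested except *Pfkfb4*; filled points have an edgeR adjusted *P* below 0.05. *Pgam1* and *Bnip3* are filled in all 3 groups, at 0.76 to 1.13 and 1.19 to 1.60, and *Ddit4* lies left of 0 in all 3.

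Further genes of the same pathways were counted from lists that do not hold the 34; *Slc2a3* and *Pfkfb2* stand both among the further hypoxia targets and among the other glycolysis genes. Among 31 tested of 33 further hypoxia targets, 1 rose in *muMt*-/- against WT TAMs by edgeR, where 2.05% of all genes tested passed. By DESeq2 at its adjusted *P* it was 2, where 2.67% of all genes passed. The list median was 0.21. At an unadjusted edgeR *P* below 0.05, 7 were higher and 1 lower, where 14.9% of all genes passed. The gene called by edgeR was *Bhlhe40*, a transcription factor gene, which counted 3.20 to 4.86 molecules in WT (median 3.99), 7.40 to 13.6 in *muMt*-/- (median 9.90) and 2.30 to 6.81 with GABA (median 5.35). All 6 *muMt*-/- libraries lay above all WT libraries for *Bhlhe40*, at a log2 fold change of 1.19 ± 0.25 (SE; edgeR adjusted *P* = 0.00597). With GABA against *muMt*-/- it did not pass in edgeR, at −0.91 ± 0.25 (SE; 0.196), although all 6 GABA-treated libraries lay below all *muMt*-/- libraries.

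The other lists had no call in *muMt*-/- against WT TAMs by edgeR. Of 21 tested of 35 other glycolysis and pyruvate genes, 4 passed at an unadjusted *P* below 0.05, all lower (list median −0.25), where 14.9% of all genes passed at that *P*. Of 16 pentose phosphate and glycogen genes it was 3, 1 higher and 2 lower (median 0.06), and of 11 tested of 13 HIF pathway regulators 1, lower (median 0.13). In the other 5 comparisons within a cell type, 0 genes of the 4 lists passed at an adjusted *P* below 0.05 in edgeR (0 to 0.0739% of all genes did), and 0 to 4 of the 9 to 31 genes tested of a list at an unadjusted *P* below 0.05 (3.71 to 8.46% of all genes). In *muMt*-/- against WT TAMs, DESeq2 called 0 genes of these 3 lists at its adjusted *P* (2.67% of all genes), and 1, 3 and 1 at its unadjusted *P* (11.7% of all genes). In the other 5 comparisons it called 0 at its adjusted *P* (0 to 0.634% of all genes) and 0 to 3 genes of a list at its unadjusted *P* (2.0 to 6.13% of all genes).

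Between cell types, 7 of 15 pentose phosphate and glycogen genes tested were higher in WT TAMs, where 16.8% of all genes were, and 0 lower, where 5.99% were (at an unadjusted *P* below 0.05, at most 1 lower in any group by edgeR and by DESeq2; DESeq2 called 0 lower at its adjusted *P*), at a list median of 1.40. In *muMt*-/- 4 were higher and with GABA 5, where 13.6% and 14.1% of all genes were, and 0 lower in either (7.71% and 7.93%). By DESeq2 at its adjusted *P*, 5 were higher in WT, 4 in *muMt*-/- and 4 with GABA. Of all genes, 19.7%, 20.5% and 20.9% passed that test in either direction. *Pgd*, encoding phosphogluconate dehydrogenase, counted 20.8 to 33.6 molecules in WT TAMs (median 27.2) and 0 to 8.89 in WT CD8+ T cells (median 5.98), at a log2 fold change of 2.44 ± 0.37 (SE; edgeR adjusted *P* = 4.69e-07). *Taldo1*, encoding transaldolase, had 1.62 ± 0.30 (SE; 2.55e-05). For both, all 6 TAM libraries lay above all CD8+ libraries. *G6pdx*, encoding glucose phosphate dehydrogenase, *Pgls* and *Ugp2* had 1.55, 1.40 and 1.20. Some genes of the pathway lists were below the filter in CD8+ T cells and entered the joint fit through TAMs, as *Pfkfb4* did. These were *Gys1*, *H6pd*, *Pygl*, *Slc2a6*, *Adpgk*, *Pdhx*, *Tigar*, *Vhl*, *Hif1an*, *Narf*, *P4ha2*, *Kdm4b* and *Vldlr*. Any calls of theirs in the counts between cell types are not read as support.

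Of 16 tested other glycolysis and pyruvate genes, 4 were higher (16.8% of all genes were) and 1 lower (5.99%) in WT TAMs. By DESeq2 at its adjusted *P*, 2 were higher and 1 lower, where 19.7% of all genes passed in either direction. *Hk3*, the hexokinase of myeloid cells, counted 26.7 to 56.9 molecules in WT TAMs (median 34.5) and 0 to 7.39 in WT CD8+ T cells (median 2.20), at a log2 fold change of 4.14 ± 0.57 (SE; edgeR adjusted *P* = 6.22e-08). *Mpc1* and *Mpc2*, encoding the mitochondrial pyruvate carrier, had 1.01 and 1.30. In *muMt*-/- the counts were 1 higher (13.6% of all genes) and 1 lower (7.71%), and with GABA 2 higher (14.1%) and 0 lower (7.93%; 0 lower in edgeR at an unadjusted *P* below 0.05, and by DESeq2 0 at either).

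Of 11 HIF pathway regulators tested, 2 were higher in WT TAMs (16.8% of all genes were), *Cited2*, whose protein competes with HIF for a coactivator, at 1.48 ± 0.34 (SE; edgeR adjusted *P* = 0.000562) and *Ep300*, which encodes such a coactivator, at 1.23 ± 0.32 (0.00305). The counts were 2 in *muMt*-/- (13.6%) and 1 with GABA (14.1%), with 0 lower in each group (5.99%, 7.71% and 7.93% of all genes; at most 1 in edgeR at an unadjusted *P* below 0.05, and by DESeq2 0 at either). Of 24 further hypoxia targets tested, 7 were higher and 4 lower in WT (16.8% and 5.99% of all genes), 4 and 4 in *muMt*-/- (13.6% and 7.71%), and 5 and 4 with GABA (14.1% and 7.93%). By DESeq2 at its adjusted *P* these counts were 4 and 4, 4 and 4, and 5 and 3. Of all genes, 19.7%, 20.5% and 20.9% passed that test in either direction. *Plin2*, a lipid droplet gene, was 2.72 ± 0.57 higher in WT TAMs on the log2 scale (SE; 0.000157). *Rora*, a nuclear receptor gene, had −4.17 ± 0.50 (SE; 1.73e-09), *Bhlhe40* −2.38 ± 0.28 (SE; 9.3e-10) and *Tfrc*, encoding the transferrin receptor, −2.11 ± 0.36 (SE; 4.92e-06).

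The promoters of these genes were searched for the core motifs bound by HIF, ACGTG and GCGTG, on both strands, in windows of 300 bases from RefSeq (build GRCm38.p6). Windows were found for 32 of the 34 genes, 49 windows in all; *Ndrg1* and *Ero1l* had none. ACGTG was in 55.1% of them and GCGTG in 55.1%, either in 79.6%, beside 19.6%, 32.4% and 43.8% of all 32851 windows. The windows of these genes also held a median of 21 CpG dinucleotides, beside 7 in all windows, and both motifs contain CG, so the shares are not a comparison at equal base composition. The genes were listed for their part in glycolysis and the response to low oxygen, so the shares are not independent of that choice. ACGTG overlaps the E-box CACGTG, which was in 12.2% of these and 7.15% of all windows and counts as ACGTG on either strand.

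Shown here are the windows of *Hif1a*, *Hk2* and *Ddit4*, which led the comparison of TAM groups. Also shown are those of *Pfkfb4*, not detected in WT or *muMt*-/- CD8+ libraries, and of *Pgam1*, which differed between cell types in all 3 groups. They lie at chr12:73907617-73907916 on the plus strand for *Hif1a*, chr6:82774405-82774704 on the minus strand for *Hk2*, chr10:59951721-59952020 on the minus strand for *Ddit4*, chr9:108991652-108991951 on the plus strand for *Pfkfb4* and chr19:41911621-41911920 on the plus strand for *Pgam1*. They hold 3, 2, 1, 0 and 1 copies of ACGTG and 0, 0, 1, 1 and 2 of GCGTG. Each is written 5′ to 3′ along the strand of the gene, and capitals mark ACGTG or GCGTG read on either strand. A match is a run of letters, and binding was not measured.
Hif1a: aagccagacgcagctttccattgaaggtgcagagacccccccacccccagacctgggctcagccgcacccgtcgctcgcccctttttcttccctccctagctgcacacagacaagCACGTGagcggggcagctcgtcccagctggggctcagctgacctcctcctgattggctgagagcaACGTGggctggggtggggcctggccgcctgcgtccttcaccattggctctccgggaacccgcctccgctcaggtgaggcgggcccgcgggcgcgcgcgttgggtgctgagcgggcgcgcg
Hk2: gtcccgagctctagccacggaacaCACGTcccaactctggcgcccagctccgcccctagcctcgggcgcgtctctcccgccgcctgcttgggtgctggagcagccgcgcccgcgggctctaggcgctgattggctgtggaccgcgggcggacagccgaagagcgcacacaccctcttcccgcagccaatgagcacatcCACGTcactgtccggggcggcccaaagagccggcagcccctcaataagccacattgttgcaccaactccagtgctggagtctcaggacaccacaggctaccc
Ddit4: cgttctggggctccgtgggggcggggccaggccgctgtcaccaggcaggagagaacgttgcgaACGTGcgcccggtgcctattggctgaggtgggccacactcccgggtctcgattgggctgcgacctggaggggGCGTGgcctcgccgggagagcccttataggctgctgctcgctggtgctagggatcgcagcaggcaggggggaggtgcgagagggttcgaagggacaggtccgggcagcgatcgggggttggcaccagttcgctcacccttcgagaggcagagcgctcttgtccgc
Pfkfb4: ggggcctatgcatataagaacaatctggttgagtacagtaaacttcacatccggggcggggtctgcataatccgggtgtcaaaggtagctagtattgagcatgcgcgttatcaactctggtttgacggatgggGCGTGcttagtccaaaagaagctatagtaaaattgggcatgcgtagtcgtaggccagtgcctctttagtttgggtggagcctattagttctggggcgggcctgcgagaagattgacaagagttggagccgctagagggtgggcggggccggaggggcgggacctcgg
Pgam1: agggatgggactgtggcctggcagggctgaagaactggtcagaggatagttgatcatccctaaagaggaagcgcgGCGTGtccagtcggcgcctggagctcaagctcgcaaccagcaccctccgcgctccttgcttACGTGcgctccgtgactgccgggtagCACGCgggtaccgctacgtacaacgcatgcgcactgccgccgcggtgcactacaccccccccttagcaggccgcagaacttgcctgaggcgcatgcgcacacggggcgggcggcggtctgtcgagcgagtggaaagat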

How the data were processed

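Digital RNA sequencing counted molecules in 36 libraries. The deposited counts were made by the authors, who aligned reads to mm10 with STAR and counted unique molecules per gene. From these counts, edgeR 4.0.16 in R 4.3.3 (TMM scaling, quasi-likelihood F-test, Benjamini-Hochberg adjustment over all genes tested, threshold 0.05) fitted the 18 TAM and the 18 CD8+ libraries separately, and all 36 jointly for comparisons between cell types. Genes with a mean normalized number of molecules above 1 were tested. DESeq2 1.42.0 gave a second test and the size factors for levels. Tables were summarized in Python 3.11.15. Fold changes are per unit of RNA in a library; counting intervals and floors cover counting error. The labels call replicates 1 to 6 independent library preparations, and their numbers were not used as a pairing. Alternatives changed scaling, filter, tool, covariates or left out a library.

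The genes and the lists of roles, pathways and cell markers were chosen with earlier results of these data known. Levels in every group are given for genes that passed within a cell type, the 5 with the lowest unadjusted *P* in each such comparison, and the 5 largest rises and falls called between cell types in WT; from each pathway list, at most the 5 with the lowest adjusted *P* among those that passed with a mean of at least 5. Further genes are named where a count or call singles them out, and were chosen after their values were seen. The gene targeted in *muMt*-/- mice was not analysed here. A further gene of the pathway lists is not reported here and was left out of their counts.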

Additional observations from a re-analysis of the deposited data

Results flagged for a closer look

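The lowest and highest library were examined in each group for the genes picked by *P* within that cell type, or by size of the change between cell types in WT, and not for the other genes. In 6 of these 91 groups of 6 libraries the highest library stood far from the others: its gap to the nearest of them, divided by the whole range of the group, was above Dixon's 95% critical value for 6 samples. Chance alone marks about 1 in 20 groups. In TAMs of *muMt*-/- mice these were *Slc2a1*, at 32.8 normalized molecules in replicate 1 with the nearest library at 21.5, and *Bnip3*, at 28.1 in replicate 5 with the nearest at 17.0. In CD8+ T cells of WT mice they were *Slc16a3*, at 36.4 in replicate 6 with the nearest at 13.3, and *Egln3*, at 5.68 in replicate 5 with the nearest at 1.26. *Hk2* reached 24.7 in replicate 1 of *muMt*-/- CD8+ T cells with the nearest at 10.1, and *Pfkfb4* 3.03 in replicate 2 of the GABA-treated CD8+ T cells with the nearest at 1.06. What set these libraries apart was not tested.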

How the results depend on the processing

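Single libraries and filters decide many calls, CD8+ T cell libraries hold few molecules, and what drives any difference was not tested. Genes called in *muMt*-/- against WT TAMs numbered 1 in the edgeR fit, and 3 with the 12 libraries of the comparison alone, DESeq2 size factors, filterByExpr, a mean above 5, the robust fit or DESeq2 at its adjusted *P* (8 at its unadjusted *P*). They numbered 6 with no filter, 0 with log2 molecules or nuclear RNA share (added after seeing the data) as a covariate, and 0 to 2 with a library left out (0 without WT replicate 1, 2 without WT replicate 3). The share of all genes called moved as well, from 2.05% in edgeR to 2.67% in DESeq2 at its adjusted *P*. For most other settings that share is not given, so the counts in this paragraph are not read as particular to these genes. For TAMs over CD8+ in WT the 12 calls became 7 in DESeq2 (19.7% of all genes) and with filterByExpr, 6 with a mean above 5, 5 with total molecules, and 5 to 13 with a library left out (5 without CD8+ replicate 4, 13 without CD8+ replicate 5). In *muMt*-/- the 5 calls became 3 with filterByExpr, a mean above 5 or total molecules, 8 with no filter or without CD8+ libraries rich in macrophage RNA, 10 at an unadjusted DESeq2 *P* (30.7% of all genes), and 2 to 9 with a library left out (2 without CD8+ replicate 4, 9 without CD8+ replicate 1). With GABA the 6 calls became 13 at an unadjusted DESeq2 *P* (31.1% of all genes), and 4 to 9 with a library left out. At that *P*, DESeq2 called 2 genes for GABA against *muMt*-/- and 4 for GABA against WT in TAMs, and 1 for the difference between the responses of the cell types to genotype, where edgeR called 0 at an adjusted *P*. Among the 47 results of named genes, log2 molecules as a covariate turned 3 signs: *Eno1* in TAMs to 0.03, and *Tpi1* and *Gapdh* for GABA against WT in CD8+ T cells to −0.1 and −0.09. A block for replicate number gave 2 calls (*Hif1a*, *Hk2*) in *muMt*-/- against WT TAMs and 14, 7 and 4 between cell types, where with the block *Slc16a1* (adjusted *P* = 0.06) and *Pfkfb4* (0.0538) lost their call with GABA and *Aldoa* and *Pfkfb3* gained one in WT and *Aldoa* and *Slc2a1* in *muMt*-/-. As a hint from the data on pairing by number, which the labels do not state, same-numbered libraries of 2 groups correlated at −0.394 to 0.45, and 0 to 2 of 6 matched their own number best.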
